A study of Homo sapiens with 8 samples.

Results

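The genes of the unfolded protein response and the chaperones of the endoplasmic reticulum were examined in total RNA sequencing of human intestinal cell lines. The members were chosen by gene symbol, and 35 of the 54261 genes in the deposited count table were members. The libraries fell into groups of 2 normal intestinal lines without treatment (NCM460 and HIEC6), 3 untreated colorectal cancer (CRC) lines (DLD1, HCT116 and HCT8), and the same 3 CRC lines under hypoxia. All 8 cultures were grown in DMEM with serum and carried the same passage label, and each line gave 1 library per condition, so a line is the only replicate of its kind. The oxygen level and the length of hypoxia are not given in the sources used here, and the extraction text of the labels speaks of a brain tissue, which does not match cell lines.

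The endoplasmic reticulum folds secreted and membrane proteins with the help of chaperones such as HSPA5 (BiP) and HSP90B1 (GRP94). When unfolded proteins accumulate, the membrane sensors ATF6, ERN1 (IRE1) and PERK are activated. Cleaved ATF6 and spliced XBP1 raise the transcription of chaperones and degradation genes, while the PERK branch slows translation and raises ATF4. Gene counts do not separate spliced from unspliced XBP1 or cleaved from whole ATF6, so only the RNA level of each gene was measured.

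The library totals ranged from 45519306 to 57374239 counts. Levels below are CPM, the count scaled to the library total. In the HCT116 pair the median of all genes was -0.35 on the log2 scale by library total, and 0.01 after scaling by edgeR's trimmed mean of M values (TMM), so log2 differences below are on the TMM scale unless said otherwise. Hypoxia marker genes were checked first, and all 12 were higher under hypoxia in each line, although BNIP3 was at 0 in untreated DLD1 and HCT8. Under hypoxia BNIP3 was at only 0.0871 CPM in DLD1 and 0.0220 CPM in HCT8, the latter being 1 count, so no rise is read from it there. CA9, a carbonic anhydrase induced by hypoxia, went from 0.0195 to 4.22 CPM in DLD1, from 0.115 to 18.8 in HCT116 and from 0.0760 to 3.91 in HCT8. The sum of 8 mesenchymal marker genes also moved, with 8 of 8 higher under hypoxia in DLD1 and HCT116 and 2 of 8 in HCT8, and the summed level spanned 13.5 to 48.2 CPM in untreated and 17.8 to 179 CPM in hypoxic CRC libraries. Its part in the results was not tested. No hypoxic library shared a sequencing run label with an untreated CRC library, so run and treatment cannot be told apart. In bulk RNA, fewer cells with a transcript and less RNA per cell cannot be told apart either.

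The markers of both normal libraries were checked as well, with mixed outcomes. In HIEC6, 4 of 8 epithelial markers were over 1 CPM, against 7 or 8 in the other untreated lines: KRT8 and KRT18 were at 4290 and 3725 CPM, while EPCAM was at 0.176. Of the 8 mesenchymal markers 5 were over 1 CPM in HIEC6, with VIM at 1223 CPM and COL1A2 at 0.458. The same count was 7 in NCM460 and 5, 6 and 5 in untreated DLD1, HCT116 and HCT8, so it does not set HIEC6 apart. NCM460 lay close to untreated HCT116: over the 33 members compared, the median absolute log2 difference was 0.182 with 0 members over 2-fold, against 0.471 to 0.526 for the other untreated libraries. Over all 13544 genes compared the same median was 0.246 for HCT116 and 0.538 to 0.786 for HIEC6, DLD1 and HCT8.

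Promoter sequences were read for 31 of the 35 members from RefSeq (GRCh38.p14), each window holding 250 bases before and 50 after a gene start. The ER stress response element (ERSE) was searched on both strands as CCAAT, 9 bases of any kind and CCACG. It was found in 27 of 35116 promoters (0.0769%) and in promoters of 8 members, namely CALR, CANX, CRELD2, HSP90B1, HSPA5, PDIA6, SERP1 and XBP1. The second form, ERSE-II, was searched as ATTGG, 1 base and CCACG. It was found in 19 promoters (0.0541%), among them those of HERPUD1, HYOU1 and SDF2L1. HSP90B1 had a pair of ERSE and HYOU1 a pair of ERSE-II. The elements of HSPA5, HSP90B1, CRELD2, XBP1, HYOU1, HERPUD1 and SDF2L1 are shown as examples, and not by rank in any test. Those of CALR, CANX, PDIA6 and SERP1 are not shown. Each sequence reads along the gene, with the element in capitals; where it begins with CGTGG the element lies on the opposite strand.
HSPA5 (chr9:125241351-125241449, minus strand): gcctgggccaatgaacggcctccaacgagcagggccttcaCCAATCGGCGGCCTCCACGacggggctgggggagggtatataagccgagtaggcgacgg
HSP90B1 (chr12:103930176-103930274, plus strand): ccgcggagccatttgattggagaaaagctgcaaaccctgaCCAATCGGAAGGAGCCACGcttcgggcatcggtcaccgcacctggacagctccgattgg
HSP90B1, nearer the start (chr12:103930281-103930379, plus strand): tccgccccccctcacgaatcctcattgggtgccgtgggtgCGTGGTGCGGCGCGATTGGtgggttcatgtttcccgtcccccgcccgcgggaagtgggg
CRELD2 (chr22:49918514-49918612, plus strand): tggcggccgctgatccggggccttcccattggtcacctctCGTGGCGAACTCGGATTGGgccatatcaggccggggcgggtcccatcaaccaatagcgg
XBP1 (chr22:28800570-28800661, minus strand): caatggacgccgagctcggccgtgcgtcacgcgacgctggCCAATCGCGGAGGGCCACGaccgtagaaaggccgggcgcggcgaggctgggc
HYOU1 (chr11:119057340-119057430, minus strand): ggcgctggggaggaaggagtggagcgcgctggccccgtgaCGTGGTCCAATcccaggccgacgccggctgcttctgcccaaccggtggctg
HYOU1, nearer the start (chr11:119057234-119057324, minus strand): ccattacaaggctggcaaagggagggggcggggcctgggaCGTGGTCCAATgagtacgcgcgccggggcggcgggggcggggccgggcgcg
HERPUD1 (chr16:56931985-56932075, plus strand): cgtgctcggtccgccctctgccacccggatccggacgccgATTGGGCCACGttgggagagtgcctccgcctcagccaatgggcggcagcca
SDF2L1 (chr22:21642074-21642164, plus strand): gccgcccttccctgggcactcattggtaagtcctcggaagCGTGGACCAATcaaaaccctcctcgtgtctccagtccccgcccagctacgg

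The shorter motif TGACGTGG was present in 0.729% of all promoters and in that of 1 member, HYOU1. The core ACGTG was present in 21.4% of all promoters and in 15 of 39 member promoters (38.5%). A match is a description of letters and not of binding.

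Per kilobase of annotated exon, the mean level over untreated CRC lines was highest for the calcium-binding chaperone CALR at 325 CPM per kb, followed by HSPA5 at 130. The next levels were CANX, PDIA6 and PDIA4 at 111, 111 and 109 CPM per kb. The lowest of the well detected members were HYOU1 at 2.30 and ERN1 at 1.998 CPM per kb. The length was the union of all annotated exons of a gene, 6.53 kb for HSPA5 and 2.80 kb for CALR. It can exceed the length of the main transcript, so this order depends on the annotation. By mean CPM without the length, CANX came first at 1531, then P4HB at 942, CALR at 911 and HSPA5 at 851. DERL3 had 0 to 14 counts in every library and ATF6B 4 to 26. Around ATF6B, 18 of 19 coding neighbours within 200 kb had at most 30 counts in any library and 9 were at 0 in every library, so ATF6B is named here with no direction read from it.

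The first comparison asked how the members differed between hypoxic and untreated CRC lines. None of the 35 members passed the test: the edgeR quasi-likelihood fit without a block called 0 of 21045 genes (0%). Same-line libraries deviated together, and blocking on the line gave 200 genes (0.95%) at an adjusted p under 0.05, none of them a member. At an unadjusted p under 0.05 the blocked fit held 7 of 35 members, beside 18.5% of all genes. At the same level the fit without the block held 0 members, beside 2.88% of all genes. DESeq2 with the block called 2 members, HYOU1 (adjusted p = 0.0336) and SYVN1 (adjusted p = 0.0278), beside 7.92% of all genes. The median log2 fold change of the members was 0.14 with the block, with 22 of 35 above 0, against 0.03 for all genes. Without the HCT116 pair it was -0.04.

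Among the genes of the lumenal folding machinery, HSPA5 measured 869, 1109 and 574 CPM without treatment, with lines in the order DLD1, HCT116 and HCT8 here and below, and 792, 1844 and 715 CPM under hypoxia. Only the HCT116 pair was apart by over 2-fold on the TMM scale, at 1.09, against -0.10 in DLD1 and 0.33 in HCT8. The log2 fold change of HSPA5 was 0.44 with the block (SE 0.243, edgeR adjusted p = 0.382), and its 95% interval ran from -0.12 to 0.995. HSP90B1, its HSP90 partner in the lumen, measured 625, 715 and 556 CPM untreated and 696, 1054 and 611 CPM under hypoxia. It was higher in each of the 3 lines, with a blocked log2 fold change of 0.42 (SE 0.208, edgeR adjusted p = 0.333).

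HYOU1, a large HSP70-like exchange factor for HSPA5, measured 19.1, 15.4 and 12.6 CPM untreated and 14.3, 4.73 and 6.55 CPM under hypoxia. It was lower in all 3 lines, although hypoxic DLD1 overlapped the untreated range, and the blocked log2 fold change was -0.89 (SE 0.266, edgeR adjusted p = 0.145). SDF2L1, which works with HSP40 cofactors, measured 27.9, 21.5 and 29.6 CPM untreated and 24.9, 9.82 and 13.8 CPM under hypoxia, with a blocked log2 fold change of -0.66 (SE 0.242, edgeR adjusted p = 0.202). The cofactor DNAJB9 stood apart by line. It measured 14.4, 14.9 and 14.9 CPM untreated and 13.1, 33.8 and 11.4 CPM under hypoxia, so that the hypoxic HCT116 library alone lay above the rest.

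**Figure D1:**
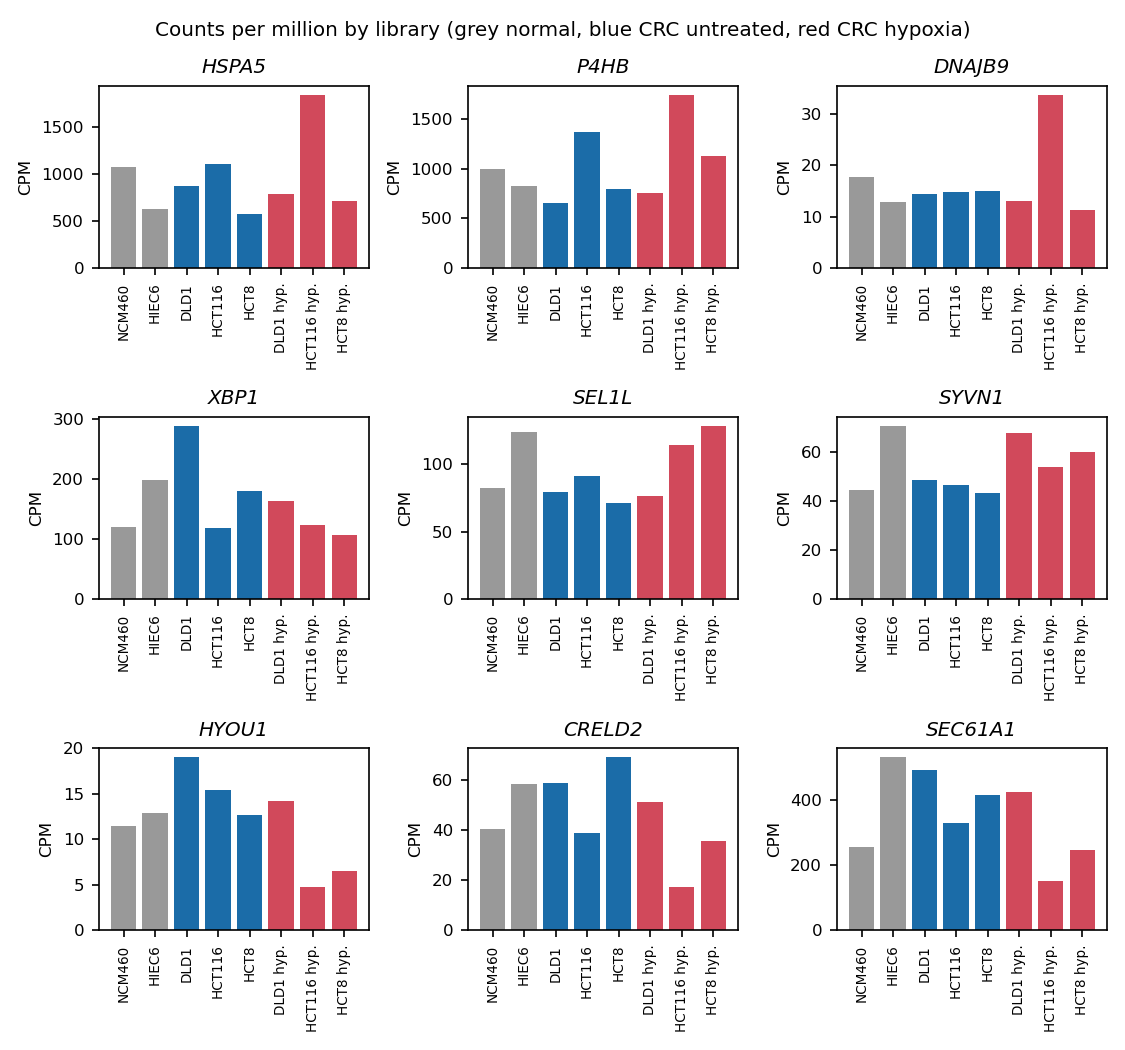
CPM (y axis, from 0) of 9 members in each of the 8 libraries (x axis, 1 bar a library), with normal lines in grey, untreated CRC lines in blue and CRC lines under hypoxia in red. HSPA5 and DNAJB9 are highest in hypoxic HCT116, at 1844 and 33.8 CPM, and HYOU1 is lowest there at 4.73 CPM.

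Among lectin chaperones and disulfide isomerases, P4HB measured 652, 1372 and 803 CPM untreated and 761, 1749 and 1127 CPM under hypoxia. P4HB is a disulfide isomerase and also a subunit of collagen prolyl hydroxylase. It was higher in each line while the groups overlapped, with a blocked log2 fold change of 0.49 (SE 0.179, edgeR adjusted p = 0.202). CALR, CANX, PDIA3, PDIA4 and PDIA6 had blocked log2 fold changes between -0.05 and 0.21.

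CRELD2, a secreted ER stress protein, measured 58.7, 38.6 and 69.2 CPM untreated and 51.1, 17.1 and 35.5 CPM under hypoxia. It was lower in each line, with a blocked log2 fold change of -0.64 (SE 0.213, edgeR adjusted p = 0.171). MANF, the other secreted member, had a blocked value of 0.17 (SE 0.195).

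In ER-associated degradation, SYVN1 is the ubiquitin ligase HRD1 and SEL1L its partner. SYVN1 measured 48.4, 46.6 and 43.3 CPM untreated and 67.9, 53.8 and 60.1 CPM under hypoxia. Its blocked log2 fold change was 0.52 (SE 0.170, edgeR adjusted p = 0.166), with 0.52, 0.57 and 0.48 in DLD1, HCT116 and HCT8. SEL1L measured 79.4, 91.0 and 71.4 CPM untreated and 76.7, 114 and 129 CPM under hypoxia, which left DLD1 near its untreated level. EDEM1, a mannosidase-like protein that marks glycoproteins for degradation, measured 95.4, 33.7 and 126 CPM untreated and 85.0, 71.1 and 153 CPM under hypoxia. HERPUD1 differed by -0.24, 1.06 and 0.26 on the log2 scale in DLD1, HCT116 and HCT8, while DERL1, DERL2 and EDEM2 had blocked values between -0.30 and -0.03.

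In translocation and export, SEC61A1, the pore subunit of the translocon, measured 495, 330 and 417 CPM untreated and 428, 151 and 246 CPM under hypoxia. It was lower in each line, with a blocked log2 fold change of -0.57 (SE 0.191, edgeR adjusted p = 0.178). SEC24D, a coat protein of vesicles leaving the ER, measured 56.2, 41.5 and 37.3 CPM untreated and 64.4, 111 and 41.1 CPM under hypoxia. Its log2 difference was 1.77 in HCT116 and 0.23 and 0.15 in DLD1 and HCT8.

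Among sensors and factors, XBP1 measured 289, 118 and 180 CPM untreated and 164, 123 and 108 CPM under hypoxia. It was lower in DLD1 and HCT8, by -0.79 and -0.73 on the log2 scale, and differed by 0.42 in HCT116. With all 3 pairs the blocked log2 fold change was -0.37 (edgeR adjusted p = 0.485), and without the HCT116 pair it was -0.78 (SE 0.165, edgeR adjusted p = 0.0304). The latter fit left out the line that went the other way, and it called 3.78% of all genes. ERN1 differed by -0.89, 0.81 and -0.11 in DLD1, HCT116 and HCT8. ATF6 had a blocked value of -0.12 (SE 0.177), and CREB3L2, a membrane-bound factor related to ATF6, one of 0.34 (SE 0.190).

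**Figure D2:**
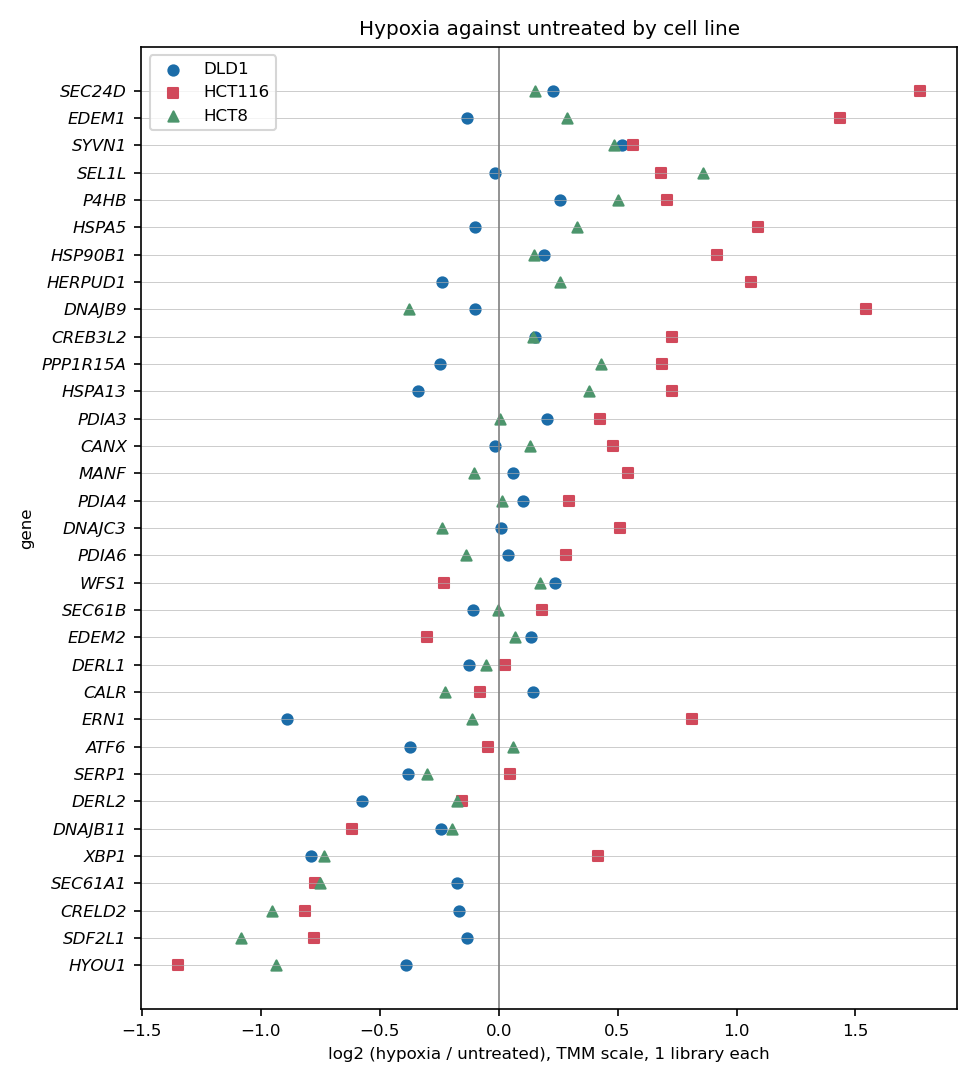
Log2 ratio of hypoxic to untreated level on the TMM scale (x axis) for 33 members (y axis, ordered by their mean), with 1 library per line and treatment and 1 symbol per line. HCT116 reaches furthest to both sides, from HYOU1 at -1.35 to SEC24D at 1.77. DERL3 and ATF6B are left out for their low counts.

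The lines differed in how far the members moved, and also in how far all genes moved. The members' median log2 difference came to -0.10 for DLD1, 0.43 for HCT116 and 0.01 for HCT8, where all genes had medians of 0.01, 0.01 and 0.02. By library total the HCT116 median was 0.07 against -0.35 for all genes. In HCT116, 5 of 33 members were over 2-fold higher and 1 over 2-fold lower on the TMM scale, beside 12.1% and 12.5% of all genes. By library total these were 3 and 4 members, beside 7.17% and 22.2% of all genes. With 1 library per line and treatment, a difference in response between lines was not tested. On the TMM scale 7 of 34 members were higher in all 3 lines and 6 lower, where all genes had 23.9% and 24.9%. By library total these were 5 and 9 members, beside 16.6% and 31.2% of all genes.

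By branch, the 8 ATF6 targets had a blocked median of 0.25 with 5 above 0, and the 10 XBP1 targets 0.06 with 6 above 0. The 8 members with an ERSE had a median of 0.01 with 4 above 0. Of the 3 with an ERSE-II, HYOU1 and SDF2L1 had negative values and HERPUD1 a positive one (0.36).

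Outside the members, 91 other genes of the pathway were in the table. The PERK and ATF4 arm held the only calls of these lists in the blocked fit. Of its 14 genes 6 were called lower, beside 0.209% of all genes, and none was called higher. The list was chosen with earlier results of these data known, so this share is a description and no independent test. The arm did not move as a whole, since 4 of the 14 had a log2 fold change above 0. EIF2AK3, the gene of PERK itself, was named after its values were seen. It measured 25.8, 22.6 and 34.5 CPM untreated and 29.5, 48.9 and 33.0 CPM under hypoxia. ATF4, the factor of this arm, measured 951, 734 and 743 CPM untreated and 476, 290 and 364 CPM under hypoxia, with a log2 fold change of -0.99 (SE 0.167, edgeR adjusted p = 0.0420). ASNS, asparagine synthetase, measured 639, 686 and 505 CPM untreated and 126, 36.3 and 112 CPM under hypoxia, with a log2 fold change of -2.77 (SE 0.344, edgeR adjusted p = 0.0169). The log2 fold changes of PSAT1, CHAC1, NUPR1 and SESN2 were -2.80, -2.44, -2.30 and -1.36. Without the HCT8 pair the blocked fit called 0 of the 14, and 6 of all 19739 genes. Without the DLD1 pair it called 3, beside 1.47% of all genes, and without the HCT116 pair 7, beside 3.78%. Over these 3 fits the log2 fold change of ATF4 ran from -1.01 to -0.97 and that of ASNS from -3.10 to -2.26. The edgeR adjusted p of ATF4 was 0.112 without the DLD1 pair, 0.00910 without the HCT116 pair and 0.445 without the HCT8 pair. That of ASNS was 0.0168, 0.000112 and 0.107 in the same order. The fit without the block called none of the 14 and 0 of all 21045 genes. It held 5 of the 14 at an unadjusted p under 0.05, beside 2.88% of all genes. No gene of the other 4 lists was called. Their lowest edgeR adjusted p was 0.0751, for a gene of translocation and traffic. ERO1A, an oxidase that recharges disulfide isomerases, was at 1.30 (SE 0.288, edgeR adjusted p = 0.0817).

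**Figure D3:**
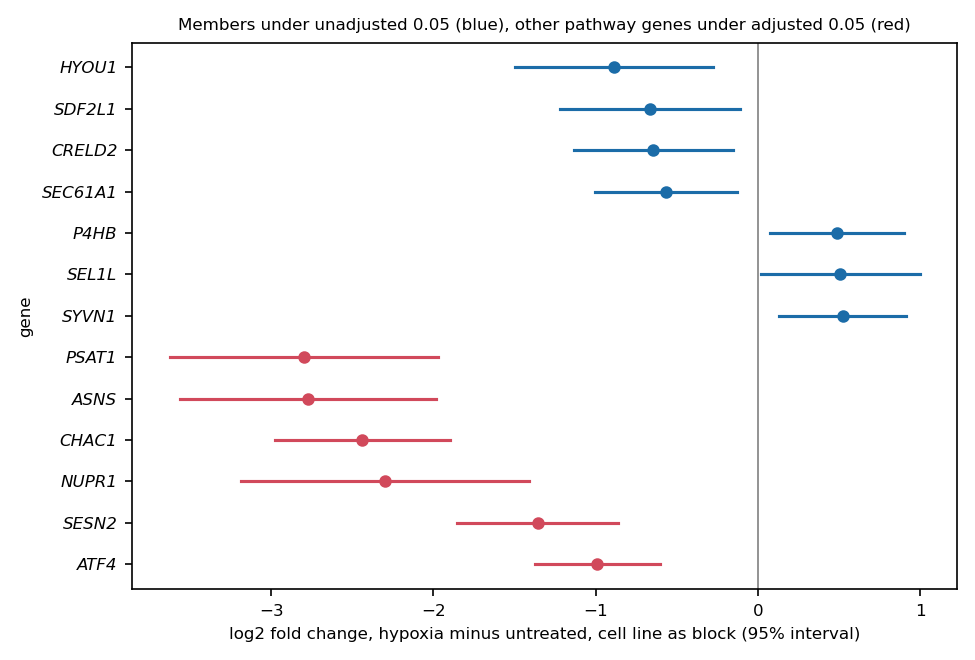
Log2 fold change of hypoxia against untreated (x axis) with 95% intervals from the blocked fit, for the 7 members at an unadjusted p under 0.05 (blue) and the 6 other pathway genes at an adjusted p under 0.05 (red). The members lie between -0.89 and 0.52, and the red genes between -2.80 and -0.99.

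The second comparison set the CRC lines against the normal lines, all untreated. Of the 34 members tested none passed, where edgeR called 0 of 19964 genes (0%), and no member had an unadjusted p under 0.05, beside 2.71% of all genes. The median log2 fold change of the members was -0.14, with 11 above 0. With NCM460 left out this median was -0.06, and with HIEC6 left out it was -0.01. HSPA5 averaged 851 ± 268 CPM (SD, n = 3) in CRC lines and 851 ± 312 CPM (SD, n = 2) in normal lines, and its log2 fold change of -0.15 had a 95% interval from -1.25 to 0.96. HERPUD1 averaged 84.7 ± 15.7 CPM (SD, n = 3) against 51.2 ± 11.7 CPM (SD, n = 2), with a log2 fold change of 0.54 (SE 0.290). Changes of the size of these intervals were not detectable with 5 libraries.

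The third comparison asked which members differed among the 3 CRC lines, over both treatments. The edgeR test called 9 of 35 members, where 39% of all genes passed. Over both treatments HCT116 had the highest fitted level of HSPA5, HSP90B1, P4HB, PDIA4, MANF, DERL1 and CREB3L2 and the lowest of WFS1 and SEC61A1. These levels average both treatments. CREB3L2 measured 158, 147 and 105 CPM untreated and 172, 190 and 115 CPM under hypoxia, so untreated DLD1 was above untreated HCT116. For HSPA5, HCT116 and DLD1 measured 1109 and 869 CPM untreated and 1844 and 792 CPM under hypoxia. Whether a line difference depends on treatment was not tested. Not every pair passed: HSP90B1, MANF and CREB3L2 did not between HCT116 and DLD1, nor PDIA4 between HCT116 and HCT8. P4HB was higher in HCT116 than in DLD1 by 1.36 on the log2 scale (SE 0.223, edgeR adjusted p = 0.00259) and than in HCT8 by 1.08 (SE 0.221, edgeR adjusted p = 0.00879). HSPA5 was higher in HCT116 than in DLD1 by 1.02 (SE 0.299, edgeR adjusted p = 0.0335) and than in HCT8 by 1.56 (SE 0.301, edgeR adjusted p = 0.00661), while HCT8 and DLD1 differed by -0.55 with a 95% interval from -1.22 to 0.13.

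WFS1, the ER membrane protein wolframin, measured 134, 43.7 and 79.4 CPM untreated and 155, 29.1 and 88.9 CPM under hypoxia. Its order was the same under both treatments, and HCT116 was lower than DLD1 by -1.79 (SE 0.227, edgeR adjusted p = 0.000689). SEC61A1 was lower in HCT116 than in DLD1 by -0.83 (SE 0.235, edgeR adjusted p = 0.0283) and did not pass between HCT116 and HCT8. CREB3L2 differed between HCT116 and HCT8 by 0.98 (SE 0.234, edgeR adjusted p = 0.0169). With 2 libraries a line, the count of 9 moved between 2 and 18 when 1 library was left out: it was 18 without untreated HCT116 (50.4% of all genes called), 15 without hypoxic HCT116 (44.5%), 8 without untreated DLD1 (29.2%), 5 without hypoxic DLD1 (24.9%), 3 without untreated HCT8 (25.3%) and 2 without hypoxic HCT8 (22.3%).

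**Figure D4:**
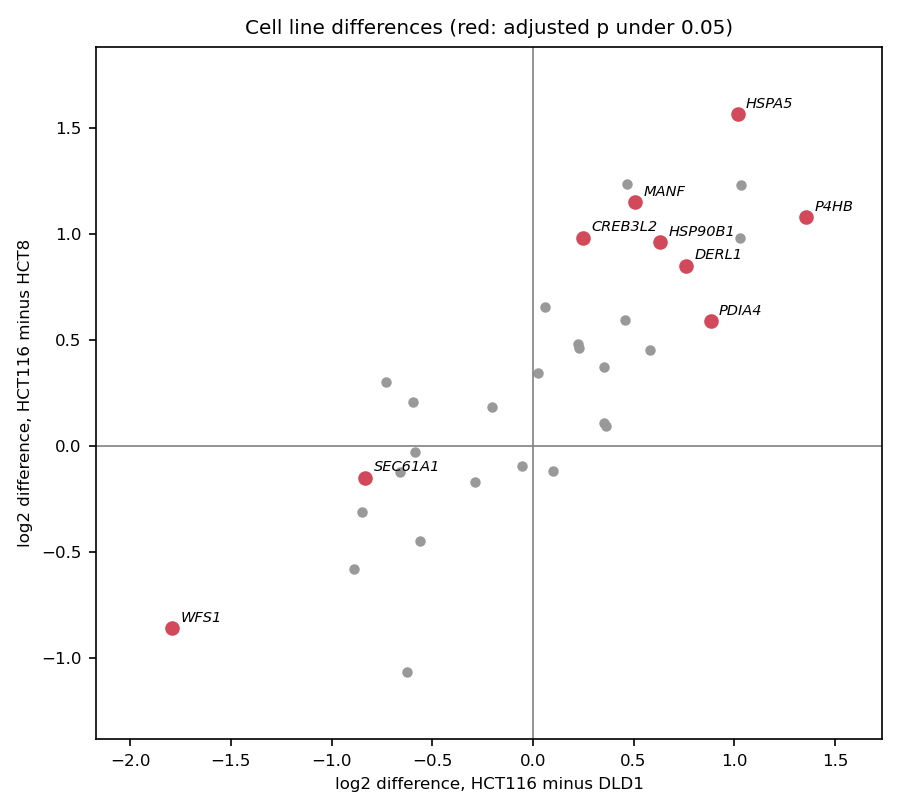
Log2 difference of HCT116 from DLD1 (x axis) and from HCT8 (y axis) for 33 members, over both treatments, with the 9 members at an adjusted p under 0.05 in red. WFS1 lies lowest on the x axis at -1.79 and P4HB highest at 1.36, and both axes share the HCT116 libraries.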

How the data were processed

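The authors deposited 1 table of raw read counts per gene for 8 rRNA-depleted total RNA libraries. The submitters' processing notes name HISAT2 2.0.4 and GRCh38, whereas the study's methods name another build, so the build behind the counts is unsure and no coordinate was taken from them. Genes reaching 10 counts in 2 or more libraries were tested with edgeR 4.0.16 (quasi-likelihood, TMM, Benjamini-Hochberg over all genes, threshold 0.05), with R 4.3.3, and the scripts were tested on simulated data. DESeq2 1.42.0, limma 3.58.1, other filters and scalings and leaving out libraries were alternatives. Same-line libraries correlated at 0.82 to 0.857 in their deviations from group means, so the replicate number paired them. One library stands for each line and condition, and p-values measure only the spread between these samples. In the blocked hypoxia fit and the comparison among lines, that spread is what line and treatment leave over. It is not a spread between cultures of a line. Exon lengths came from a GENCODE annotation on GRCh37. The members and lists were chosen with earlier results of these data known. Any member could be named, as could other pathway genes past the threshold or largest in a direction and at most 3 check genes a list. EIF2AK3 falls outside this rule.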

Additional observations from a re-analysis of the deposited data

Results flagged for a closer look

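For some members the values under hypoxia had opposite signs in different lines under both scalings. The difference between lines was not tested, since each line has 1 library per treatment. At a size of at least 0.5 on the log2 scale in each direction, ATF6B was the single member, at -1.13 in DLD1 and 2.39 in HCT116 on the TMM scale, from 5 to 26 counts in these libraries, too few for a direction to be read. A smaller size of 0.25 together with at least 10 counts in the 6 CRC libraries was set after that outcome was seen, and it would have left ATF6B out. It added DNAJB9, at 1.54 in HCT116 and -0.38 in HCT8, and ERN1, at -0.89 in DLD1 and 0.81 in HCT116. It also added HSPA13, an HSP70 relative, at -0.34 in DLD1, 0.73 in HCT116 and 0.38 in HCT8.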

How the results depend on the processing

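In the hypoxia comparison the count of members called was 0. It became 2 of 35 under the replicate block with DESeq2, beside 7.92% of all genes. With the replicate block without the HCT116 pair it became 1 of 35, beside 3.78%. The members' median moved by less than the spread between lines (SD 0.279) in every alternative run, though to -0.07 without hypoxic HCT116. The replicate block turned ERN1 from 0.15 to -0.06, to -0.04 with DESeq2, to -0.02 with upper-quartile normalization, to -0.04 with at least 10 counts in every library (an alternative added after seeing the data), and to -0.52 and -0.03 without the HCT116 and HCT8 pairs, and limma-trend gave -0.06. With the block, DNAJB9 was -0.26 without the HCT116 pair and ATF6 0.01 without the DLD1 pair. Leaving out 1 library gave ranges of -0.24 to 0.95 for HSPA5, -0.07 to 1.01 for P4HB, -0.66 to 0.00 for XBP1, -0.22 to 0.04 for ATF6, -0.62 to 0.48 for ERN1 and -0.30 to 1.02 for DNAJB9. The lowest values of HSPA5, P4HB, ERN1 and DNAJB9 came without hypoxic HCT116. Against normal lines the count stayed at 0 in 12 alternatives, of which only DESeq2 called any gene (0.716% of all genes). In that comparison HSPA5 was 0.12 with a replicate block that joins different lines by number only and is no pairing. Leaving out 1 library gave -0.44 to 0.19 for HSPA5 and -0.33 to 0.60 for XBP1. Among lines the count was 17 with no filter beyond 1 count (29.9% of all genes called), 12 with DESeq2 (43.6%) and 2 to 18 with 1 library left out (22.3% to 50.4%). The cause was not tested. DERL3 and ATF6B had at most 14 and 26 counts in any library, and the reason for these low counts was not tested.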
